A study of Saccharomyces cerevisiae with 6 samples.

Results

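The 38 genes described here encode the core DNA replication machinery of the budding yeast Saccharomyces cerevisiae and 3 subunits of its ribonucleotide reductase, out of 5449 yeast genes measured. They were chosen by gene symbol, and each was read by the 1 probe set that the platform annotation pairs with it. The arrays compared 3 samples labelled gpm1 (by the series title a knock-out mutant of phosphoglycerate mutase, an enzyme of glycolysis) with 3 samples labelled wild type (WT). By their labels, both groups were batch cultures in ethanol and glycerol. The labels give no genetic background, no culture age and no other allele for either group. Nor do they tell separate cultures from repeat preparations of 1 culture, and the p-values may therefore rest on technical spread alone.

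The deleted gene went against the labels. GPM1 (YKL152C) stood at 12.51, 12.48 and 11.82 on the log2 scale on the arrays labelled gpm1, against 5.16, 5.12 and 5.17 on those labelled WT, where it was under 6.09, the level that 95% of probe sets for genes outside the yeast gene table did not exceed (called the background percentile below). Groups and directions below follow the labels and say nothing about which strain lacked the gene. The arrays labelled gpm1 were also unlike each other. The median SD over all genes was 0.25 among them and 0.048 among those labelled WT, and labelled gpm1 replicate 3 lay nearest to the arrays labelled WT. With replicate 3 left out, 2240 genes passed an adjusted p of 0.05 where 44 passed with all 6 arrays. Poly-A control transcripts (12 probe sets) averaged 7.05, 6.60 and 6.17 on labelled gpm1 replicates 1, 2 and 3, against 5.91, 6.19 and 6.18 on the arrays labelled WT. Their part in any difference below was not tested.

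In yeast, the origin recognition complex marks replication origins, and Cdc6 helps it to load the ring of Mcm proteins that becomes the replicative helicase. Cdc45 and the GINS complex then join the Mcm ring and switch it on, after which primase, the DNA polymerases, the sliding clamp and ligase copy and seal the strands. Ribonucleotide reductase supplies the deoxynucleotides. Transcripts of many of these genes rise once per cell cycle in yeast, near the start of S phase for most and earlier, around the end of mitosis, for CDC6 and several Mcm genes.

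None of the 38 genes passed the test between the labelled groups, and 24 stood above and 14 below labelled WT. Over all genes, 44 of 5449 passed (0.807%, limma, Benjamini-Hochberg adjusted p under 0.05). The smallest adjusted p among the 38 was 0.187, for the primase gene PRI1. Over the groups as labelled, gpm1 minus WT, the median log2 difference was 0.17 for the 38 genes and 0.019 for all genes. At an unadjusted p under 0.05 there were 6 of the 38, all above labelled WT (15.8%, where 12.0% of all genes were higher by that rule). These were ORC6, CDC6, PSF2, SLD5, PRI1 and RFC5. Cultures are mixtures, so a different share of cells in S phase and a different amount of a transcript per cell cannot be told apart.

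All 38 genes had a mean above the background percentile, as did 93.5% of all genes. The 95% interval of the difference stayed inside a 2-fold change for 33 genes. It reached 2-fold for ORC4, POL2, PRI2, POL30 and RNR1, and over all 38 genes the intervals ran from -1.39 (the lower bound for ORC4) to 1.31 (the upper bound for POL30). Changes of under 2-fold in either direction could thus have been missed for most members with 3 arrays per group.

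**Figure D1:**
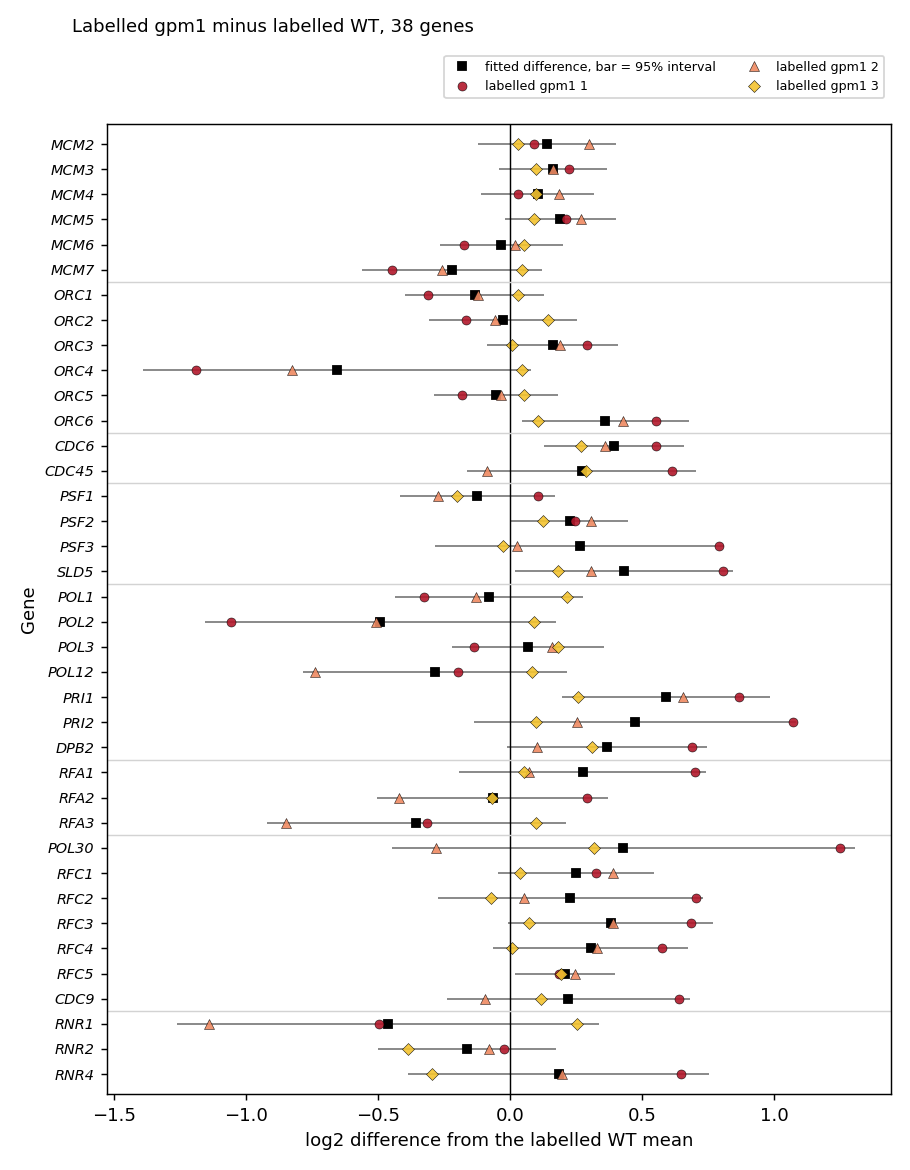
Difference from the mean of the 3 arrays labelled WT on the log2 scale (x axis) for each of the 38 genes (y axis). Black squares are the fitted differences with 95% intervals and coloured symbols are the 3 arrays labelled gpm1. The intervals of 6 genes leave out 0, and the symbols for replicate 1 are spread from -1.19 for ORC4 to 1.25 for POL30, while those for replicate 3 lie between -0.39 and 0.32.

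The 3 arrays labelled gpm1 did not agree on the 38 genes. In replicate 1 the genes stood between -1.19 and 1.25 from the labelled WT mean, in replicate 2 between -1.14 and 0.65, and in replicate 3 between -0.39 and 0.32. No array labelled WT departed from its group's mean by more than 0.17 for any of them. The SD among the arrays labelled gpm1 was the larger one for all 38 genes, with a median of 0.28 against 0.042 among those labelled WT, where 5157 of all 5449 genes also had the larger SD in the arrays labelled gpm1. In replicate 1, 15 of the 38 genes (39.5%) were at least 0.5 above the labelled WT mean, where 20.8% of all genes were, and 2 (5.26%) were at least 0.5 below it, where 17.8% of all genes were. Replicate 2 had 1 gene that far above (2.63%, against 12.1% of all genes) and 5 that far below (13.2%, against 13.7%). Replicate 3 had none, where 0.532% of all genes were that far above and 3.30% that far below. For 6 of the 38 genes, replicates 1 and 2 lay on opposite sides of all 3 arrays labelled WT.

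**Figure D2:**
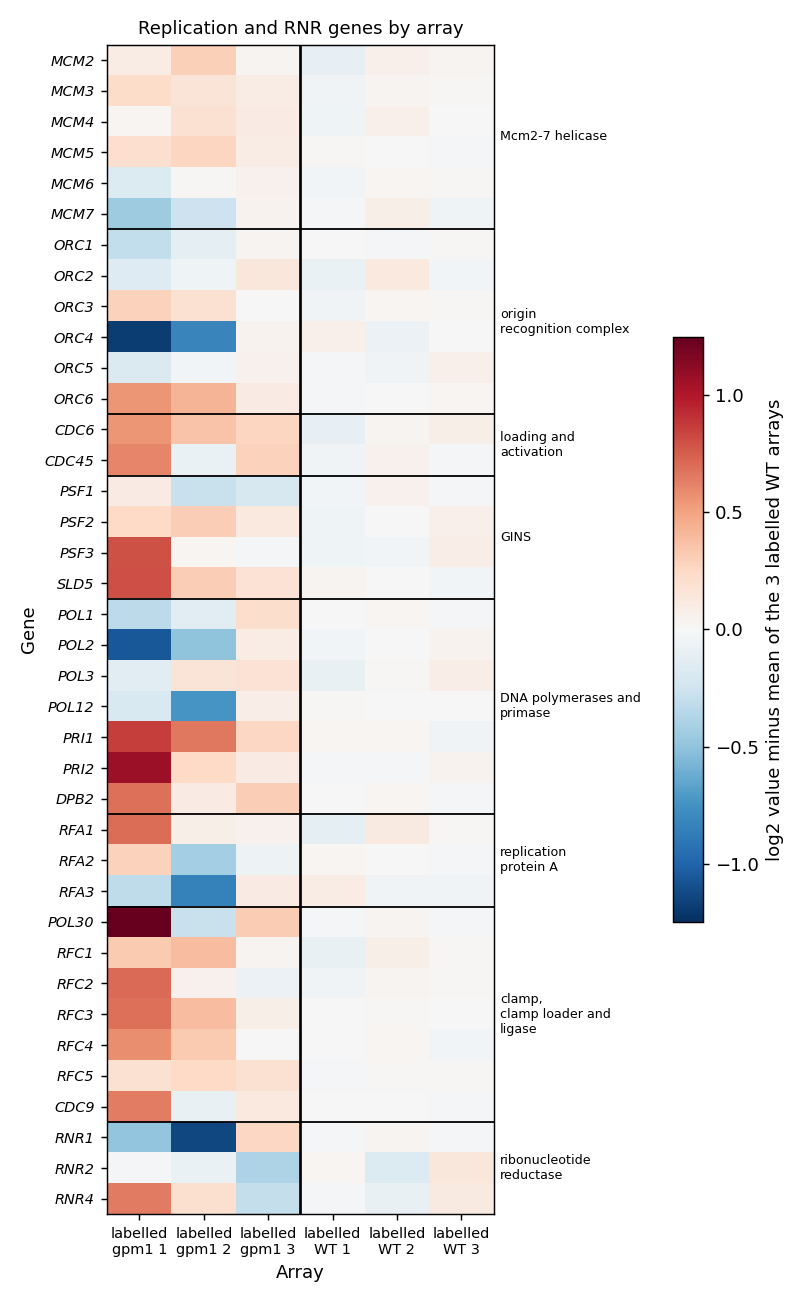
Value of each of the 38 genes on each of the 6 arrays, as the log2 difference from the mean of the 3 arrays labelled WT (colour scale, red above and blue below). Genes run down the page by complex and arrays run across, with the 3 labelled gpm1 on the left. Strong colours lie in labelled gpm1 replicates 1 and 2, from -1.19 to 1.25, and the arrays labelled WT stay within 0.17 of their mean.

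The origin recognition complex, the first factor to sit at an origin, was led by ORC4 in size. ORC4 (YPR162C) had 6.06, 6.43 and 7.30 (log2) on the arrays labelled gpm1, against 7.32, 7.18 and 7.26 on those labelled WT. Replicates 1 and 2 were well under every array labelled WT, and replicate 3 lay among them. The fitted difference was -0.66 (SE 0.30, limma adjusted p = 0.247), and without labelled gpm1 replicate 3 it was -1.01 (adjusted p = 0.0036). In the fit without that array, 41.1% of all genes passed. ORC6, for the subunit that yeast needs to load the Mcm ring, went the other way. It had 7.78, 7.66 and 7.34 on the arrays labelled gpm1 and 7.21, 7.23 and 7.26 on those labelled WT, so that the groups did not overlap. Its difference was 0.36 (SE 0.13, adjusted p = 0.206). The other subunits lay between these, with ORC3 at 0.16, ORC2 at -0.026, ORC5 at -0.053 and ORC1, for the largest subunit, at -0.13. Proteins that work as 1 complex thus had transcripts spread over 1.74 log2 units in replicate 1, over 1.25 in replicate 2 and over 0.14 in replicate 3.

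The 6 genes of the Mcm helicase ring were the most even over the arrays labelled gpm1, with the lowest median SD of any group here (0.11, against 0.050 over the arrays labelled WT). Their differences ran from -0.22 for MCM7 to 0.19 for MCM5. MCM5 (YLR274W) had 8.04, 8.10 and 7.92 on the arrays labelled gpm1, against 7.84, 7.83 and 7.81 on those labelled WT (SE 0.087, adjusted p = 0.243). All 3 arrays labelled gpm1 were above all those labelled WT for MCM5 and for MCM3, which differed by 0.16. MCM7 (YBR202W) had 7.96, 8.15 and 8.45 on the arrays labelled gpm1 and 8.39, 8.48 and 8.35 on those labelled WT. Here replicates 1 and 2 were low and replicate 3 lay within the range of labelled WT (difference -0.22, SE 0.14, adjusted p = 0.360). MCM2, MCM4 and MCM6 differed by 0.14, 0.11 and -0.033.

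CDC6 and CDC45, whose products act before and after the ring is loaded, both had positive differences. CDC6 (YJL194W) had 7.55, 7.35 and 7.26 on the arrays labelled gpm1, against 6.89, 7.03 and 7.06 on those labelled WT. The groups did not overlap, and the difference was 0.39 (SE 0.11, 95% interval 0.13 to 0.66, adjusted p = 0.191). CDC45 (YLR103C) had 8.01, 7.31 and 7.69 on the arrays labelled gpm1 and 7.36, 7.45 and 7.38 on those labelled WT. Replicate 1 was high and replicate 2 was under every array labelled WT, which left a difference of 0.27 (SE 0.18, adjusted p = 0.370).

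The 4 GINS subunits, which hold Cdc45 on the helicase, were not alike. SLD5 (YDR489W) had 8.13, 7.63 and 7.51 on the arrays labelled gpm1, against 7.36, 7.33 and 7.29 on those labelled WT, with no overlap (difference 0.43, SE 0.17, adjusted p = 0.218). PSF2 (YJL072C) was also above labelled WT on all 3 arrays, with 8.30, 8.37 and 8.18 on those labelled gpm1 and 8.004, 8.05 and 8.12 on those labelled WT (difference 0.23, adjusted p = 0.220). PSF3 was high on replicate 1 alone, at 0.79 above the labelled WT mean, against 0.025 and -0.025 on replicates 2 and 3. PSF1 was above the labelled WT mean on replicate 1, by 0.11, and stood at -0.27 and -0.20 on the other arrays labelled gpm1.

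Among the polymerases, the genes of primase, which makes the RNA primers, and those of the large catalytic subunits differed in sign on replicate 1. PRI1 (YIR008C), for the catalytic subunit of primase, had 8.45, 8.23 and 7.84 on the arrays labelled gpm1, against 7.60, 7.60 and 7.53 on those labelled WT. The groups were clearly apart, and the difference was 0.59 (SE 0.16, 95% interval 0.20 to 0.99), the highest of the 38. Its adjusted p was 0.187 with all 6 arrays and 0.0030 without labelled gpm1 replicate 3, in a fit where 41.1% of all genes passed. PRI2 (YKL045W), for the other primase subunit, had 9.32, 8.50 and 8.35 on the arrays labelled gpm1 and 8.23, 8.22 and 8.28 on those labelled WT. These groups also did not overlap, but replicate 1 carried most of the difference of 0.47 (SE 0.25, adjusted p = 0.290). DPB2, for the second subunit of polymerase epsilon, was above labelled WT on all 3 arrays by 0.69, 0.10 and 0.31 (difference 0.37, adjusted p = 0.228).

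POL2 (YNL262W), for the catalytic subunit of polymerase epsilon, the leading-strand enzyme, had 7.08, 7.63 and 8.23 on the arrays labelled gpm1, against 8.10, 8.13 and 8.18 on those labelled WT. Replicates 1 and 2 were low and replicate 3 was above every array labelled WT, so the difference of -0.49 (SE 0.28, adjusted p = 0.309) averages unlike arrays. Without replicate 3 it was -0.78 (adjusted p = 0.018), in a fit where 41.1% of all genes passed. POL1, for the catalytic subunit of the primase-bound polymerase alpha, showed the same order with smaller values, at -0.32, -0.13 and 0.22 from the labelled WT mean. POL12, for another polymerase alpha subunit, was lowest on replicate 2, at -0.74, with -0.20 and 0.082 on replicates 1 and 3. POL3, for the catalytic subunit of polymerase delta, the lagging-strand enzyme, differed by 0.067 (adjusted p = 0.735).

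Replication protein A coats single-stranded DNA as a trimer, and the 3 transcripts stood apart from each other. RFA1, for the large subunit, was 0.70, 0.071 and 0.053 above the labelled WT mean on labelled gpm1 replicates 1, 2 and 3. RFA2 stood at 0.29, -0.42 and -0.068 on the same arrays. RFA3 (YJL173C), for the smallest subunit, had 9.03, 8.50 and 9.45 on the arrays labelled gpm1, against 9.44, 9.30 and 9.30 on those labelled WT. Replicate 2 was the lowest of the arrays labelled gpm1 for RFA2 and RFA3, and the fitted difference of RFA3 was -0.35 (SE 0.23, adjusted p = 0.370).

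The sliding clamp, its loader and the ligase had positive differences in all 7 members, from 0.21 to 0.43, as the pair CDC6 and CDC45 did. None passed the test. Of all genes, 52.4% had a positive difference. POL30 (YBR088C), for the clamp itself (PCNA), had 11.05, 9.52 and 10.12 on the arrays labelled gpm1, against 9.78, 9.84 and 9.78 on those labelled WT. Its 3 arrays labelled gpm1 thus stood far above, below and slightly above labelled WT, and the difference of 0.43 (SE 0.36, adjusted p = 0.469) came with the widest spread of the 38 genes, an SD of 0.77. RFC5 (YBR087W), the gene next to POL30 in the R64 gene table and coding for a subunit of the clamp loader, was by contrast the most even. It had 8.50, 8.56 and 8.51 on the arrays labelled gpm1, against 8.29, 8.33 and 8.33 on those labelled WT, with no overlap (difference 0.21, SE 0.079, 95% interval 0.019 to 0.40, adjusted p = 0.210). RFC3 (YNL290W) had 9.28, 8.99 and 8.67 on the arrays labelled gpm1 and 8.59, 8.61 and 8.59 on those labelled WT, also without overlap (difference 0.38, SE 0.16, adjusted p = 0.226). RFC1, RFC2 and RFC4 differed by 0.25, 0.23 and 0.31. CDC9, for the ligase that joins the lagging-strand fragments, was 0.64 above labelled WT on replicate 1 and stood at -0.094 and 0.12 on the other arrays labelled gpm1.

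**Figure D3:**
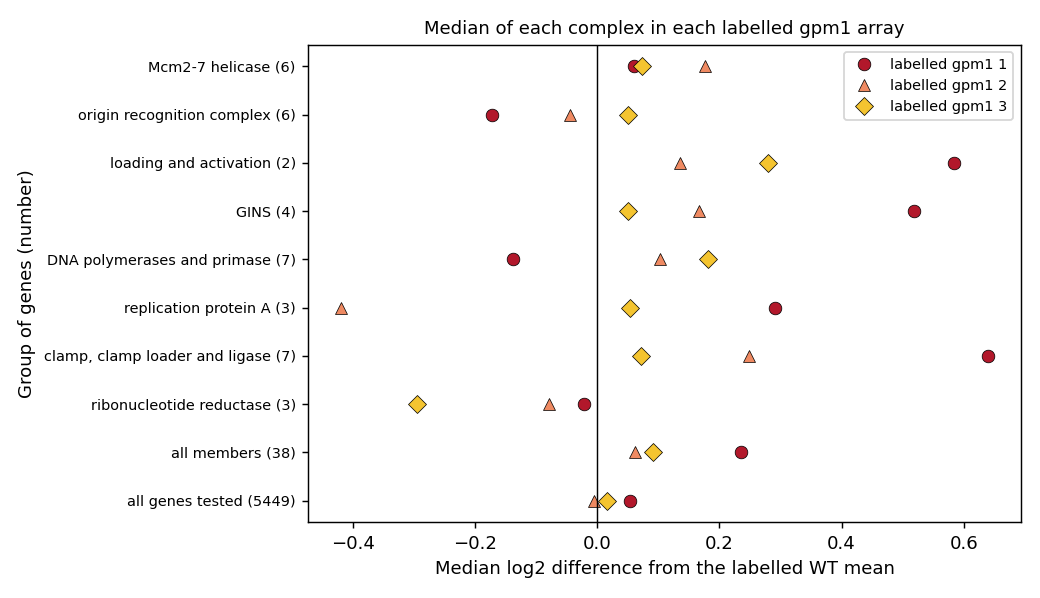
Median log2 difference from the labelled WT mean (x axis) of each complex, of all 38 genes and of all 5449 genes tested (y axis, number of genes in brackets), with 1 symbol per array labelled gpm1. The clamp group has its median at 0.64 in replicate 1, 0.25 in replicate 2 and 0.071 in replicate 3. Ribonucleotide reductase, with 3 genes unlike in direction, has -0.022, -0.079 and -0.29. Labelled WT replicate 2, not drawn, has -0.088 for the same genes.

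In all, the 3 arrays labelled gpm1 were above the 3 labelled WT for 11 of the 38 genes (28.9%, where 19.2% of all genes were), namely MCM3, MCM5, ORC6, CDC6, PSF2, SLD5, PRI1, PRI2, DPB2, RFC3 and RFC5. They were below for 0 genes, where 15.4% of all genes were. Without labelled gpm1 replicate 3, 16 of the 38 genes passed (42.1%), 11 higher (28.9%) and 5 lower (13.2%). In that fit 41.1% of all genes passed, 21.6% higher and 19.5% lower, so the share of the 38 that passed was near that of all genes. The 5 lower were MCM7, ORC4, POL2, RFA3 and RNR1.

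The subunits of ribonucleotide reductase differed from each other in direction. RNR1 (YER070W) encodes the main large subunit, which holds the catalytic and regulatory sites, and RNR2 and RNR4 encode the paired small subunits. RNR1 had 8.40, 7.75 and 9.15 on the arrays labelled gpm1, against 8.87, 8.92 and 8.88 on those labelled WT. Replicates 1 and 2 were below and replicate 3 above every array labelled WT (difference -0.46, SE 0.33, adjusted p = 0.405). Without replicate 3 the difference was -0.82 (limma adjusted p = 0.024), in a fit where 41.1% of all genes passed.

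RNR4 (YGR180C) had the opposite order, with 11.53, 11.08 and 10.58 on the arrays labelled gpm1 and 10.85, 10.79 and 10.99 on those labelled WT. Replicates 1 and 2 were above and replicate 3 below every array labelled WT (difference 0.18, SE 0.24, adjusted p = 0.633). RNR2 (YJL026W) had 10.38, 10.32 and 10.01 on the arrays labelled gpm1 and 10.42, 10.23 and 10.54 on those labelled WT. Replicate 3 was the low one, and replicates 1 and 2 lay within the range of labelled WT (difference -0.16, SE 0.14, adjusted p = 0.475). The large-subunit transcript and the RNR4 transcript therefore departed from labelled WT in opposite directions on each of the 3 arrays labelled gpm1.

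RNR3, for the alternative large subunit that yeast makes after DNA damage, was the 1 gene of the enzyme and its regulators that passed. It had 6.96, 6.74 and 7.06 on the arrays labelled gpm1, against 7.71, 7.62 and 7.75 on those labelled WT. All 3 arrays labelled gpm1, replicate 3 included, were below all those labelled WT, and RNR3 was 1.71-fold lower (log2 difference -0.77, SE 0.11, 95% interval -1.05 to -0.50, limma adjusted p = 0.0488). The call was marginal. It was lost when labelled gpm1 replicate 1 or 2 or any 1 array labelled WT was left out, and over its 15 alternatives the adjusted p ran from 0.0029 to 0.36. The difference itself stayed between -0.84 and -0.68.

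The regulators of the enzyme did not pass. SML1, for the inhibitor that binds Rnr1, had 11.70, 10.89 and 10.52 on the arrays labelled gpm1, against 10.62, 10.59 and 10.60 on those labelled WT. Its order over the arrays labelled gpm1 was that of RNR4, and its difference was 0.44 (SE 0.29, adjusted p = 0.371). DIF1, for the factor that brings the small subunits into the nucleus, had 8.06, 7.30 and 7.72 on the arrays labelled gpm1 and 7.95, 7.87 and 7.89 on those labelled WT (difference -0.21, adjusted p = 0.496). Of the 9 genes in the list of the RNR3 paralogue and regulators, 1 was lower, 0 were higher and 8 did not pass, with a median of 0.023.

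**Figure D4:**
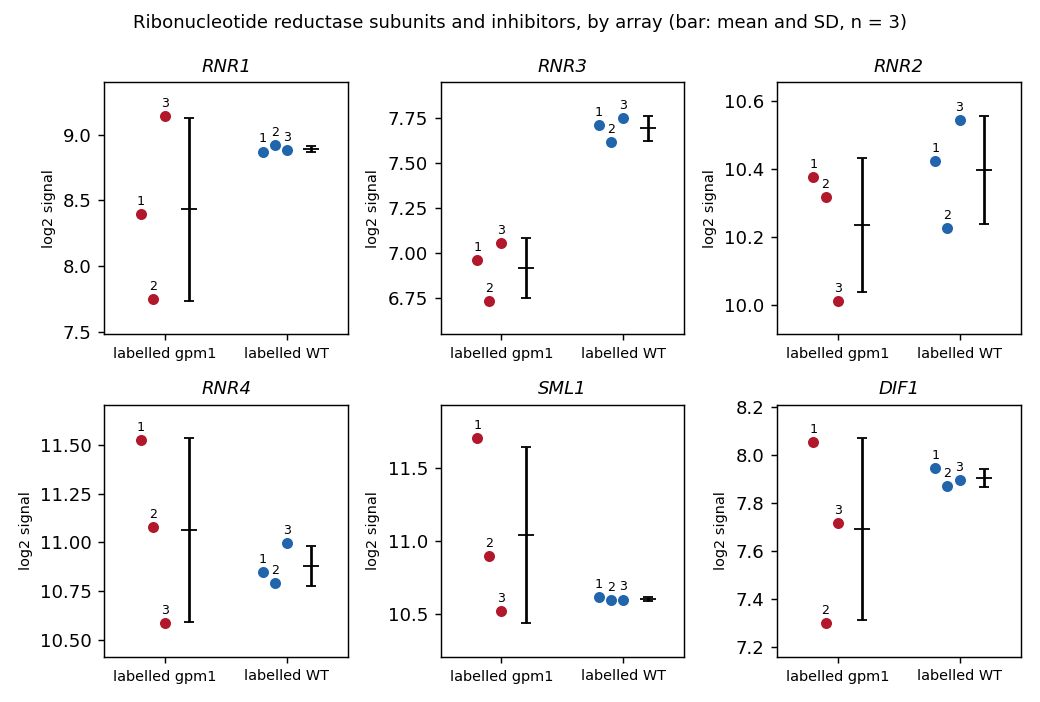
Log2 signal (y axes, which differ between panels and do not start at 0) of the ribonucleotide reductase subunit genes and of the inhibitor genes SML1 and DIF1 on the 3 arrays labelled gpm1 (left, red) and the 3 labelled WT (right, blue), with replicate numbers and the mean and SD of each group. RNR3 is the gene whose groups stand apart, with 6.74 to 7.06 against 7.62 to 7.75, and in RNR1 the SD is 0.70 in the arrays labelled gpm1 against 0.026 in those labelled WT.

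Other genes of the same processes were read from lists of their own. Of 24 further replication factors, 0 passed and 1 had an unadjusted p under 0.05, with a median of 0.069. Their differences ran from -0.48 to 0.47. Positive ones numbered 16 and negative ones 8, where 52.4% of all genes had a positive difference. DNA2, for a nuclease and helicase that trims lagging-strand fragments, stood at -0.48 (adjusted p = 0.221), and DPB11, for an initiation factor, at -0.34 (adjusted p = 0.225). Of 7 genes of deoxynucleotide synthesis, 0 passed and all 7 had a positive difference, with a median of 0.059. DCD1, for dCMP deaminase, had 7.95, 7.98 and 7.70 on the arrays labelled gpm1, against 7.40, 7.41 and 7.41 on those labelled WT, which did not overlap (difference 0.47, SE 0.10, adjusted p = 0.140). CDC21, for thymidylate synthase, stood at 0.52 (adjusted p = 0.257), with 1.12, 0.30 and 0.15 on labelled gpm1 replicates 1, 2 and 3. Of the 6 genes for factors that control transcription at the start of S phase, 0 passed. MBP1, SWI6 and SWI4, which encode the subunits of the factors MBF and SBF, differed by 0.12, 0.25 and 0.12. WHI5, for the repressor of SBF, stood at -0.29 (adjusted p = 0.222), with a mean under the background percentile.

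Gene length moved with the values most on replicate 1. The probes of this array read amplified RNA primed from the 3' end, and gene lengths were those of the RefSeq R64 table, of which 97% are multiples of 3 and so hold coding sequence with few or no untranslated ends. Of the 38 genes, the 15 longer than 2000 bases had a median of -0.14 on replicate 1, 0.019 on replicate 2 and 0.092 on replicate 3. The other 23 had medians of 0.55, 0.071 and 0.071 on the same arrays. Over all genes, the 1228 longer than 2000 bases had medians of -0.13, -0.11 and 0.018, and the 4221 others had 0.10, 0.021 and 0.014. Spearman's rho between length and the difference on replicate 1 was -0.49 across the 38 genes and -0.20 across all 5449, as a description over genes of 1 array. On replicate 2 it was -0.13 across the 38 genes and -0.11 across all. On replicate 3 these were 0.18 and 0.00024.

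The longest of the 38 was POL2 with 6669 bases, at -1.06 on replicate 1, and POL1 with 4407 bases stood at -0.32. Length did not order every gene. ORC4, with 1590 bases, was the lowest on replicate 1 at -1.19, PRI2, with 1587 bases, stood at 1.07, and RFA3, the shortest with 369 bases, stood at -0.31. With a smooth curve of the difference against length removed from each array, POL1 turned to 0.15 and MCM6 to 0.062, and 0 of the 38 genes passed. The cause of the relation with length was not tested.

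**Figure D5:**
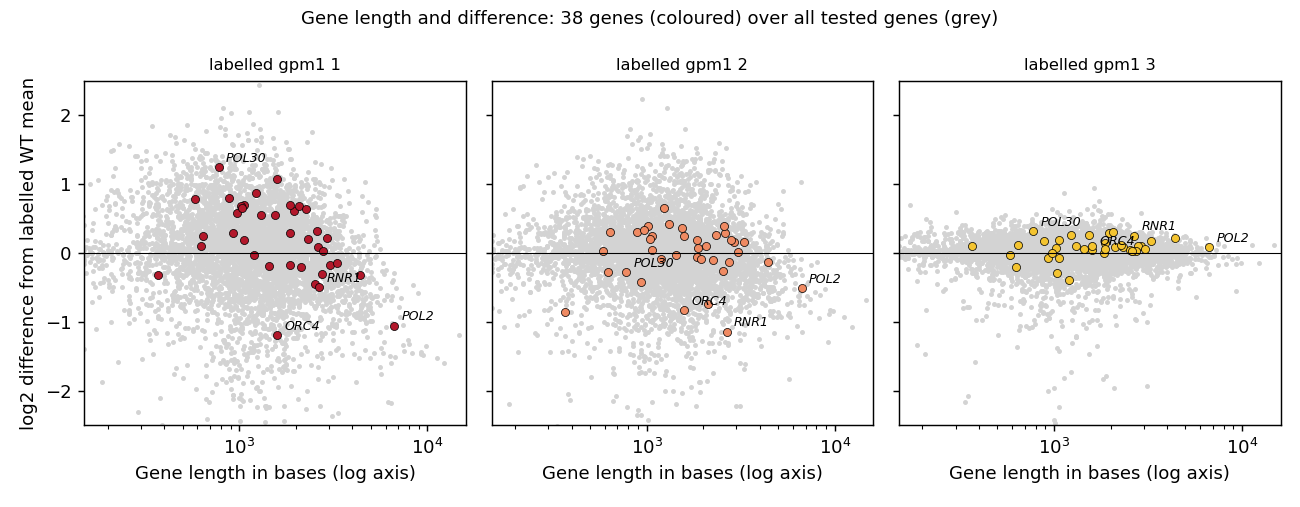
Log2 difference from the labelled WT mean (y axis) against gene length in bases (x axis, log scale) in the 3 arrays labelled gpm1, 1 panel each. Coloured points are the 38 genes and grey points all genes tested, of which 88 lie beyond the axes in at least 1 panel. In replicate 1, POL2 is at -1.06 and POL30 at 1.25, and in replicate 3 the 38 genes stay between -0.39 and 0.32.

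Markers of other cell states were read beside these genes. Of 10 genes of quiescence and stationary phase, 6 were lower in the arrays labelled gpm1, 0 were higher and 4 did not pass, with SIP18 and GRE1, for hydrophilins, at -4.28 and -4.32 (limma adjusted p = 0.0012 and 0.0029). UBI4 was the 1 gene of this list that went the other way, at 0.23 (adjusted p = 0.495). It stood at 0.60, 0.31 and -0.22 on labelled gpm1 replicates 1, 2 and 3. The summed linear signal of this list was 7659 to 9566 on the arrays labelled gpm1 and 22518 to 26665 on those labelled WT. Its median was -2.43, -2.91 and -2.15 on labelled gpm1 replicates 1, 2 and 3. By that median, replicate 3 thus departed from labelled WT about as far as the others, while its replication genes stayed within 0.39 of the labelled WT mean. Single genes of the list were unlike. SNZ1, chosen after its values were seen, stood at -2.56, -2.35 and -0.64 on labelled gpm1 replicates 1, 2 and 3. SIP18 stood at -3.89, -4.39 and -4.57 on the same arrays. The part of this list in the differences of the 38 genes was not tested. Of 10 genes of meiosis and sporulation 0 passed, the summed signal was 764 to 806 on the arrays labelled gpm1 and 805 to 821 on those labelled WT, and SPO13, HOP1 and REC8 had a mean under the background percentile. IME1 and NDT80, for the main inducers of meiosis, stood at -0.40 (adjusted p = 0.162) and -0.45 (adjusted p = 0.219). Positive differences numbered 4 and negative ones 6 in this list, where 52.4% of all genes had a positive difference. ZIP1 went the other way, at 0.38 (adjusted p = 0.329). It stood at 0.82, 0.40 and -0.090 on labelled gpm1 replicates 1, 2 and 3. In both groups the genes of haploid a cells were high, with a summed signal of 5295 to 7655 on the arrays labelled gpm1 and 4491 to 5192 on those labelled WT. The genes of alpha cells summed to 327 to 427 on the arrays labelled gpm1 and 359 to 370 on those labelled WT, with both alpha-factor genes under the background percentile, and 0 of the 4 genes of either list passed. STE2, for the receptor that a cells carry, and MFA1, for a mating pheromone of a cells, differed by 0.47 and 0.66 (adjusted p = 0.201 and 0.222). STE3, for the receptor that alpha cells carry, had 6.42, 6.51 and 6.52 on the arrays labelled gpm1, against 6.74, 6.69 and 6.65 on those labelled WT, which did not overlap (difference -0.21, SE 0.083, adjusted p = 0.219). MF(ALPHA)1, for alpha-factor, had 5.55, 7.16 and 5.71 on the arrays labelled gpm1 and 5.77, 5.68 and 5.79 on those labelled WT, with replicate 2 as the high one (adjusted p = 0.561).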

How the data were processed

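Probes were summarised into probe sets with PLIER by the authors, as the submitters' processing notes name it. The deposited values were read as log2, since they range from about 5 to 13. No version, offset, scaling or log base is stated in the labels, and every fold rests on base 2. Of 10928 probe sets, 5498 had a gene ID in the S. cerevisiae R64 table. The brightest probe set per gene was kept, which left 5449 genes, and 1746 listed probe sets with other IDs served as background. All 38 genes had 1 probe set each, and none was of a type marked as binding several transcripts. Labelled gpm1 was compared with labelled WT by limma 3.58.1 (lmFit, eBayes) in R 4.3.3, two-sided, adjusted by Benjamini-Hochberg over 5449 genes at 0.05. The test was tried on simulated data that gave both groups the same SD for each gene. The real groups differ in spread, so the simulation did not check the test under that condition. Precision is limited by 3 arrays per group. Plots used matplotlib 3.10.9.

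The 38 genes, the lists and the tests were chosen with earlier results of these data known. Genes named outside the 38 were, from each list, the 2 with the largest difference among those that passed, or, in lists where none passed, the 2 lowest in p, with the paralogue and direct regulators of ribonucleotide reductase, the subunits of MBF and SBF, and GPM1. Named beside these are genes marked in place as chosen after their values were seen, or as going the other way in their list. The alternatives were quantile normalization, median centring, leaving out the dimmest 20% of genes, the mean of probe sets, all yeast probe sets, a trended robust prior, a replicate block, array weights and leaving out each array. Removal of a gene length curve (lowess span 0.5) was added after seeing the data. Promoter motifs and protein sequences were not analysed here. No coordinates are given because no genome build is named.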

Additional observations from a re-analysis of the deposited data

How the results depend on the processing

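Over 15 alternatives, 568 fits of single genes of the 38 kept their direction and side of the threshold in 537 cases, passed it in 19 and changed sign in 12, with a lowest adjusted p of 0.30. CDC6 and ORC4 were not in the fit without dim genes. With array weights, whose estimate stopped before it converged, 3 of the 38 passed (PRI1, ORC4 and RNR1), with 16 genes of the other lists and 1009 of all genes. Leaving out 1 array at a time gave 0 to 16 of the 38 (16 without labelled gpm1 replicate 3, 0 without any other), against 0 with all arrays. It gave 3 to 31 genes of the other lists, against 7, and 11 to 2240 of all genes, against 44. For the other lists the count was 3 without labelled gpm1 replicate 2 or labelled WT replicate 1, and 4 without labelled WT replicate 2 or 3. For all genes it was 12 without labelled gpm1 replicate 2, and 11, 19 and 13 without labelled WT replicates 1, 2 and 3. The median difference of the 38 ran from 0.053 (without labelled gpm1 replicate 1) to 0.23 (without replicate 3), against 0.17. GPM1 ran from 6.997 to 7.35.

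Signs turned for MCM6 (0.011 with quantile normalization, 0.062 with the gene length curve removed, 0.037 without labelled gpm1 replicate 1), ORC5 (0.0082 with quantile normalization, 0.010 without labelled gpm1 replicate 1), POL1 (0.15 with the length curve removed, 0.043 without labelled gpm1 replicate 1), ORC2 (0.044 without labelled gpm1 replicate 1, 0.033 without labelled WT replicate 2), RFA2 (0.11 without labelled gpm1 replicate 2), RFC2 (-0.0097) and RNR4 (-0.048), both without labelled gpm1 replicate 1. With 1 array left out, the differences ran from -0.077 to 0.037 for MCM6, -0.11 to 0.010 for ORC5, -0.23 to 0.043 for POL1, -0.11 to 0.044 for ORC2, -0.24 to 0.11 for RFA2, -0.0097 to 0.38 for RFC2 and -0.048 to 0.42 for RNR4. The cause was not tested.

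Deviations of same-numbered arrays from their group means had correlations of 0.051, 0.024 and -0.13. No shared deviation was seen, which cannot show whether same-numbered samples were prepared together. With the replicate number as a block, 0 of the 38 genes and 31 of all genes passed, and RNR3 stood at an adjusted p of 0.12. RNR3 also missed the threshold with median centring (0.052), without dim genes (0.052) and over all yeast probe sets (0.050).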

Other observations

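Genes of the end of mitosis and early G1 had medians of -1.005, -0.52 and 0.17 from the labelled WT mean on labelled gpm1 replicates 1, 2 and 3. At least 0.5 below that mean were 8, 5 and 0 of the 10 genes, where 17.8%, 13.7% and 3.30% of all genes were. SIC1 and CLN3 went the other way on replicate 1, at 0.53 and 0.20. On replicate 3 the 10 genes ran from -0.48 (RME1) to 0.40. Of 10 such genes 0 passed with all 6 arrays, with a median of -0.45, and 6 were lower without labelled gpm1 replicate 3, where 19.5% of all genes were. RME1, for a repressor of meiosis, had 7.55, 8.29 and 8.91 on the arrays labelled gpm1, against 9.34, 9.26 and 9.59 on those labelled WT (difference -1.15, SE 0.33, limma adjusted p = 0.196). ASH1, for a repressor kept in daughter cells, had 7.87, 8.22 and 9.19 on the arrays labelled gpm1 and 9.16, 9.25 and 9.23 on those labelled WT (difference -0.79, adjusted p = 0.222). EGT2, DSE1 and DSE2, which act in the separation of daughter cells and were chosen after their values were seen, stood at -2.37, -1.29 and -1.56 on replicate 1 and at 0.20, 0.18 and 0.14 on replicate 3.

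By their median, the genes of G1/S cyclins and S-phase cohesion set replicates 1 and 2 apart, as POL30 did, though not every gene followed. CLN1, CLN2 and SMC3 went the other way on labelled gpm1 replicate 1, at -0.056, -0.17 and -0.21 from the labelled WT mean. Their median was 0.49 on labelled gpm1 replicate 1, -0.18 on replicate 2 and 0.18 on replicate 3, and 0 of 10 passed. MCD1, for a cohesin subunit, had 9.24, 8.03 and 8.48 on the arrays labelled gpm1, against 8.18, 8.20 and 8.10 on those labelled WT (limma adjusted p = 0.391). CLB6, for an S-phase cyclin, differed by 0.30 (adjusted p = 0.273). PCL1, for another G1 cyclin and chosen after its values were seen, had 9.61, 7.95 and 8.71 on the arrays labelled gpm1 and 8.48, 8.52 and 8.46 on those labelled WT. Of 10 genes of G2 and mitosis 0 passed, with a median of 0.024, and CLB2, for the main mitotic cyclin, differed by 0.23 (adjusted p = 0.257). Positive differences numbered 6 and negative ones 4, where 52.4% of all genes had a positive difference. CLB1 went the other way in this list, at -0.46 (adjusted p = 0.429). It stood at -1.10, -0.61 and 0.35 on labelled gpm1 replicates 1, 2 and 3. IQG1, for a factor of cytokinesis, had 8.88, 8.33 and 8.37 on the arrays labelled gpm1, against 8.26, 8.30 and 8.28 on those labelled WT (difference 0.25, adjusted p = 0.364).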
